A study of Mus musculus with 23 samples.

Results

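Transcripts of 8 secreted cytokines were followed in neutrophils and whole lung of mice: *Tnf*, *Tnfsf14*, *Csf1*, *Csf3*, *Il6*, *Osm*, *Il10* and *Il23a*. They were chosen by name, as ligands of the TNF, colony-stimulating factor and IL-6 type with the small cytokines usually measured beside them, and are 8 of the 21878 genes listed for sorted neutrophils and 8 of the 55335 listed for whole lung. All 8 were found in both kinds of table. In pulmonary neutrophils *Osm*, *Tnf*, *Csf3* and *Il23a* were higher than in PB neutrophils and *Tnfsf14* was lower, in 2 separate experiments. *Il10* was low in pulmonary neutrophils, with between 20 and 83 reads per WT library, *Il6* had at most 7 reads there, and both were at 0 in PB and BM.

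The study examined how neutrophils differ between the lung and other sites and what the mechanosensitive ion channel PIEZO1 contributes. In the tissue experiment, neutrophils of untreated WT C57BL/6J mice were taken from BM, PB and perfused lung, with 3 libraries each. In the *Piezo1* experiment, pulmonary and PB neutrophils were compared between WT mice and *Piezo1*-cKO mice, with 2 libraries for each genotype and site. In the whole-lung experiment, lung tissue of WT mice was compared with lung of WT mice depleted of neutrophils, with 3 libraries each. *Piezo1*-cKO mice carry loxP sites around internal exons of *Piezo1* and a Vav1-driven iCre, which is active in all hematopoietic cells, so the deletion is not limited to neutrophils. Depletion was by intraperitoneal anti-Ly6G antibody 24 hours, or 24 and 48 hours, before analysis, with an isotype antibody as control in the study's methods, and the labels call these groups "pmn deletion" and "wt". Mice were generally 7 to 12 weeks old, and the labels give no age by library. The study presents the whole-lung libraries directly after an experiment on neutrophil depletion at an early age, so these mice may have been younger. Sorted cells were CD45+CD11b+Ly6G+, after negative selection for lung and PB. The study's tissue processing digests lung with collagenase and DNase, a step not listed for PB or BM. For functional assays the study left out the enzymes to avoid activating the cells. In the comparisons of lung with PB or BM, site and preparation therefore cannot be told apart. A figure legend of the study describes the tissue libraries as separate mice. For the *Piezo1* and whole-lung libraries the sources used here do not state it, and p-values there measure only the spread between these samples, which may be technical.

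The sorted libraries held between 9621088 and 19330794 reads assigned to genes, and all 8 neutrophil markers examined were at 1 FPKM or more in every sorted group. Tissue PB replicate 3 stood apart from the other PB libraries, and each PB result is therefore also given without it where that mattered. Erythroid transcripts summed to between 910 and 972 FPKM in *Piezo1*-cKO PB against between 20.8 and 20.9 in WT PB. Markers of T and NK cells, B cells, dendritic cells, mast cells, endothelium and fibroblasts summed to at most 6.85 FPKM in any sorted library, and lung epithelial markers to at most 24.1 FPKM, in PB. Macrophage and monocyte markers summed to between 64.5 and 174 FPKM, with *Csf1r*, which neutrophils also carry, as the main part of it (mean 97.4 FPKM in tissue lung and 42.3 in BM, where the sums were between 125 and 128 and between 64.5 and 69.3). In BM 5 of the 12 were at 1 FPKM or more in every library and in the other sorted groups 2 were, and *C1qa* and *Ccr2* were at 0 in the whole *Piezo1* experiment. *Piezo1* itself had between 3 and 10 reads per library in both genotypes, so its level could not check the deletion.

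The TNF superfamily is made as membrane-anchored ligands that can be shed. TNF activates endothelium and leukocytes through TNFR1 and TNFR2 and induces NF-kB target genes, and TNFSF14 (LIGHT) binds the herpesvirus entry mediator and the lymphotoxin beta receptor. CSF-1 maintains macrophages and G-CSF, the product of *Csf3*, drives neutrophil production. IL-6 and oncostatin M signal through receptor complexes that contain gp130, IL-10 restrains inflammatory transcription through STAT3, and *Il23a* encodes the p19 subunit of IL-23, which needs the p40 subunit encoded by *Il12b*. Messenger RNAs of such cytokines are often short-lived, since AU-rich elements in their 3′ UTRs bind decay factors such as tristetraprolin (*Zfp36*).

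Part of each 3′ UTR is shown because, over the whole 3′ UTR, the members fall into a group with dense ATTTA pentamers and a pair without. The windows alone do not show this split, since that of *Il10* holds 1 pentamer and that of *Csf1* 2. One window of 30 bases per gene, in transcript sense and on GRCm38 with GENCODE vM21 models, was chosen for its number of ATTTA pentamers, which stand in capitals.

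Tnf (chr17:35199679-35199708, minus strand): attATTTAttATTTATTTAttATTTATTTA
Il23a (chr10:128296187-128296216, minus strand): agtatagatgatggttATTTAttctATTTA
Csf3 (chr11:98702984-98703013, plus strand): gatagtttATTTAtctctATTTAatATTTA
Il10 (chr1:131024372-131024401, plus strand): cctcgtttgtacctctctccgaaatATTTA
Il6 (chr5:30019677-30019706, plus strand): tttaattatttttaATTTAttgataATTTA
Osm (chr11:4240939-4240968, plus strand): aatccgttttatATTTAtaaggcctATTTA
Csf1 (chr3:107741109-107741138, minus strand): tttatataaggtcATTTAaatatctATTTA
Tnfsf14 (chr17:57190264-57190293, minus strand): caggaagaaagaatcaagctggggtATTTA

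Over the longest 3′ UTR of each of 21022 genes the median density was 1.24 ATTTA per kilobase. *Tnf* had 10.5 per kilobase, *Il23a* 9.13, *Csf3* 8.97, *Il10* 8.50, *Il6* 6.0 and *Osm* 5.90, so that between 95.0% and 99.0% of genes had a lower density than these 6. The *Il6* value is for a 3′ UTR of 1668 bases, longer than the 1141 bases of *Il6* behind its FPKM. *Csf1*, at 1.89, and *Tnfsf14*, at 0.981 per kilobase, lay near the middle of all genes. The longer element TTATTTATT occurred in 2 of the 8 members, 5 times in *Tnf* and 1 time in *Il23a*, and in 7.66% of genes. A match describes the letters and not a bound site, and mRNA half-life was not measured here.

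A promoter entry, from 250 bases before to 50 after the annotated start, was found in RefSeq for 4 of the 8 members on GRCm38.p6. *Tnf* and *Tnfsf14* are shown because these members of the same family and chromosome lay on opposite sides of the lung and PB comparison. The motifs found stand in capitals.

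Tnf (chr17:35201958-35202257, minus strand): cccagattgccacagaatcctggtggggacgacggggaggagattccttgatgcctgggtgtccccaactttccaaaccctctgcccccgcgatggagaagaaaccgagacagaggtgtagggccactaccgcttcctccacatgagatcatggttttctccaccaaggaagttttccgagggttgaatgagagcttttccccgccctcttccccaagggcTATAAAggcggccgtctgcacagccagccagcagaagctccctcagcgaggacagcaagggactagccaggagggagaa
Tnfsf14 (chr17:57194132-57194431, minus strand): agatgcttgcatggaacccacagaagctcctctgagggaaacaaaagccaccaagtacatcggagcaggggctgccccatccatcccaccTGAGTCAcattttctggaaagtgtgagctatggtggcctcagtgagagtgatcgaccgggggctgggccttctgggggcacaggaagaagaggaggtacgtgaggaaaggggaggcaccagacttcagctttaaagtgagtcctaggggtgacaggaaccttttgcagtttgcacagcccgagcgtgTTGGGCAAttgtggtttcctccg

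The capitals mark a TATA box (TATAAA) 29 bases before the start of *Tnf*, and an AP-1 motif (TGANTCA) and a C/EBP motif (TTGCNNAA, read on the minus strand) in *Tnfsf14*. On both strands of 32851 promoters, 13.6% held the TATA box letters, 7.81% AP-1 and 10.8% C/EBP. The NF-kB motif was in 4.51% of promoters, among them those of *Csf1* and *Il6*, and a CRE (TGACGTCA) was in 1.79%. The letters of NF-kB and CRE were not found in these windows of *Tnf* and *Tnfsf14*, which says nothing about the factors.

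*Tnf*, the founding ligand of its family, lies on chromosome 17 between 35199367 and 35202007 on the minus strand (GRCm38.p6) and has 4 exons. Exons of each member were counted in its transcript with the longest 3′ UTR. The level of *Tnf* was 135, 134 and 132 FPKM (reads normalised to gene length and sequencing depth) in the 3 lung libraries. It was 34.6, 39.1 and 25.6 FPKM in PB and 32.6, 32.8 and 32.1 FPKM in BM. All lung libraries lay above all PB and BM libraries, while PB and BM overlapped. Mean *Tnf* in lung was 4.04 times that in PB, a difference of 2.00 ± 0.135 (SE) on the log2(FPKM + 1) scale (limma, adjusted p = 2.99e-06), and 1.83 without PB replicate 3. Lung and BM differed by 2.01 (limma, adjusted p = 1.05e-12), and PB and BM by 0.01 (limma, adjusted p = 0.975). In that last comparison, leaving out PB replicate 3 gave 0.17 (limma, adjusted p = 0.0159). In the *Piezo1* experiment *Tnf* was 102 and 107 FPKM in WT lung and 13.5 and 16.1 FPKM in WT PB, a difference of 2.74 (limma, adjusted p = 8.18e-08).

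*Tnfsf14*, whose product is also a T-cell costimulator, lies on chromosome 17 between 57189474 and 57194181 on the minus strand and has 4 exons. It was the member with the opposite order. Its level was 63.5, 61.2 and 63.3 FPKM in lung, 192, 185 and 214 FPKM in PB, and 57.5, 61.2 and 58.2 FPKM in BM. The PB libraries were above all others. *Tnfsf14* fell in lung against PB by 1.63 ± 0.0655 on the log2 scale (limma, adjusted p = 1.8e-07), to 0.318 of the PB mean, and rose in PB against BM by 1.72 (limma, adjusted p = 1.8e-07). Lung and BM differed by 0.09 (limma, adjusted p = 0.0303), below the fold threshold. WT lung of the *Piezo1* experiment, at 63.9 and 61.8 FPKM, was again below WT PB, at 242 and 233 FPKM (limma, −1.90, adjusted p = 8.75e-09).

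*Csf1* lies on chromosome 3 between 107741048 and 107760469 on the minus strand, has 9 exons and overlaps the RefSeq gene *Gm40121*, from which it cannot be told apart if reads were counted without strand. It was 152, 156 and 155 FPKM in lung, 120, 119 and 115 FPKM in PB, and 11.5, 11.1 and 10.6 FPKM in BM. The step was between BM and the other sites, and the 3 sites did not overlap. *Csf1* rose in PB against BM by 3.31 (limma, adjusted p = 7.55e-09) and in lung against BM by 3.69 (limma, adjusted p = 9.43e-14), 14.0 times the BM mean. Lung and PB differed by 0.38 ± 0.0471 (limma, adjusted p = 9.67e-05), which did not reach a log2 difference of 1. The value depended on scale, since the median gene differed by −0.54, and relative to it *Csf1* differed by 0.92.

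*Csf3* lies on chromosome 11 between 98700183 and 98703631 on the plus strand, has 5 exons and overlaps the RefSeq gene *Gm38985*. It was 17.9, 17.7 and 17.3 FPKM in lung, 0 in all PB libraries, and 0, 0.0189 and 0 FPKM in BM. Lung held 2452 reads in all, PB none and BM 1. Against a floor of 3 reads over the PB group, lung *Csf3* was at least 880-fold higher, and it passed the test (limma, adjusted p = 1.85e-09). Of the *Piezo1* experiment, WT lung had 19.9 and 18.5 FPKM, while each PB library of either genotype had at most 1 read.

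*Osm* lies on chromosome 11 between 4236785 and 4241026 on the plus strand and has 3 exons. It was the most abundant member in every group of the tissue experiment, with PB *Tnfsf14* overlapping it. Its level was 717, 701 and 693 FPKM in lung, 224, 219 and 182 FPKM in PB, and 79.1, 82.0 and 81.4 FPKM in BM. The 3 sites did not overlap, and *Osm* ranked between place 84 and 89 of all genes by FPKM in the lung libraries. It rose in lung against PB by 1.76 ± 0.0822 (limma, adjusted p = 4.07e-07), 3.38 times the mean, and in PB against BM by 1.35 (limma, adjusted p = 2.09e-06). Between *Piezo1*-experiment WT groups it was 1254 and 1263 FPKM in WT lung against 382 and 389 FPKM in WT PB, which was 3.27 times (limma, 1.71, adjusted p = 1.05e-09).

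*Il6*, on chromosome 5 between 30013114 and 30019975 on the plus strand, overlaps the RefSeq gene *A230098N10Rik*. Its transcript with the longest 3′ UTR has 4 exons, which need not hold for its main transcript. *Il6* was 0.307, 0.255 and 0.372 FPKM in lung, from 6, 5 and 7 reads, and 0 in PB and BM. The 18 reads in lung were at least 6.46-fold above the PB floor of 3 reads. *Il6* had 0 reads in both WT lung libraries of the *Piezo1* experiment and 2 reads in 1 *Piezo1*-cKO lung library. A level of *Il6* in pulmonary neutrophils was therefore seen in 1 of the 2 experiments only, close to the floor, which for a single library lay between 0.136 and 0.273 FPKM.

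*Il10*, on chromosome 1 between 131019845 and 131024970 on the plus strand with 5 exons, was 1.74, 1.12 and 0.928 FPKM in lung, from 39, 25 and 20 reads, and 0 in PB and BM. It was below the filter of 1 FPKM in 3 libraries and was not tested in the tissue experiment. The 84 reads in lung were at least 30.2-fold above the PB floor. WT lung of the *Piezo1* experiment had 4.27 and 3.41 FPKM, from 83 and 67 reads, and WT PB had 0 (limma, 2.27, adjusted p = 1.05e-06).

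*Il23a*, on chromosome 10 between 128296140 and 128298084 on the minus strand with 4 exons, had the greatest difference of the tested members on the log2(FPKM + 1) scale, on which adding 1 shrinks low levels. As a ratio of means it was 234 times higher in lung than in PB, below the bound for *Csf3*. It was 53.7, 52.9 and 54.3 FPKM in lung, 0.291, 0.200 and 0.198 FPKM in PB, and 0 in BM. PB held 7, 5 and 5 reads, so the PB level was just above the floor of 3 reads. *Il23a* rose in lung against PB by 5.47 ± 0.0661 (limma, adjusted p = 7.05e-10), and the 3702 reads in lung were at least 1382-fold above the BM floor. *Il12b*, which encodes the p40 chain that pairs with p19 in IL-23, was at a mean of 0.0233 FPKM in lung. *Il12a*, the p35 chain that pairs with p40 in IL-12, was at 11.2 ± 2.00 FPKM (SD, n = 3) in lung against 0.338 ± 0.250 in PB. In the *Piezo1* experiment *Il23a* was 66.7 and 69.1 FPKM in WT lung, against 0 and 2 reads in WT PB.

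**Figure D1:**
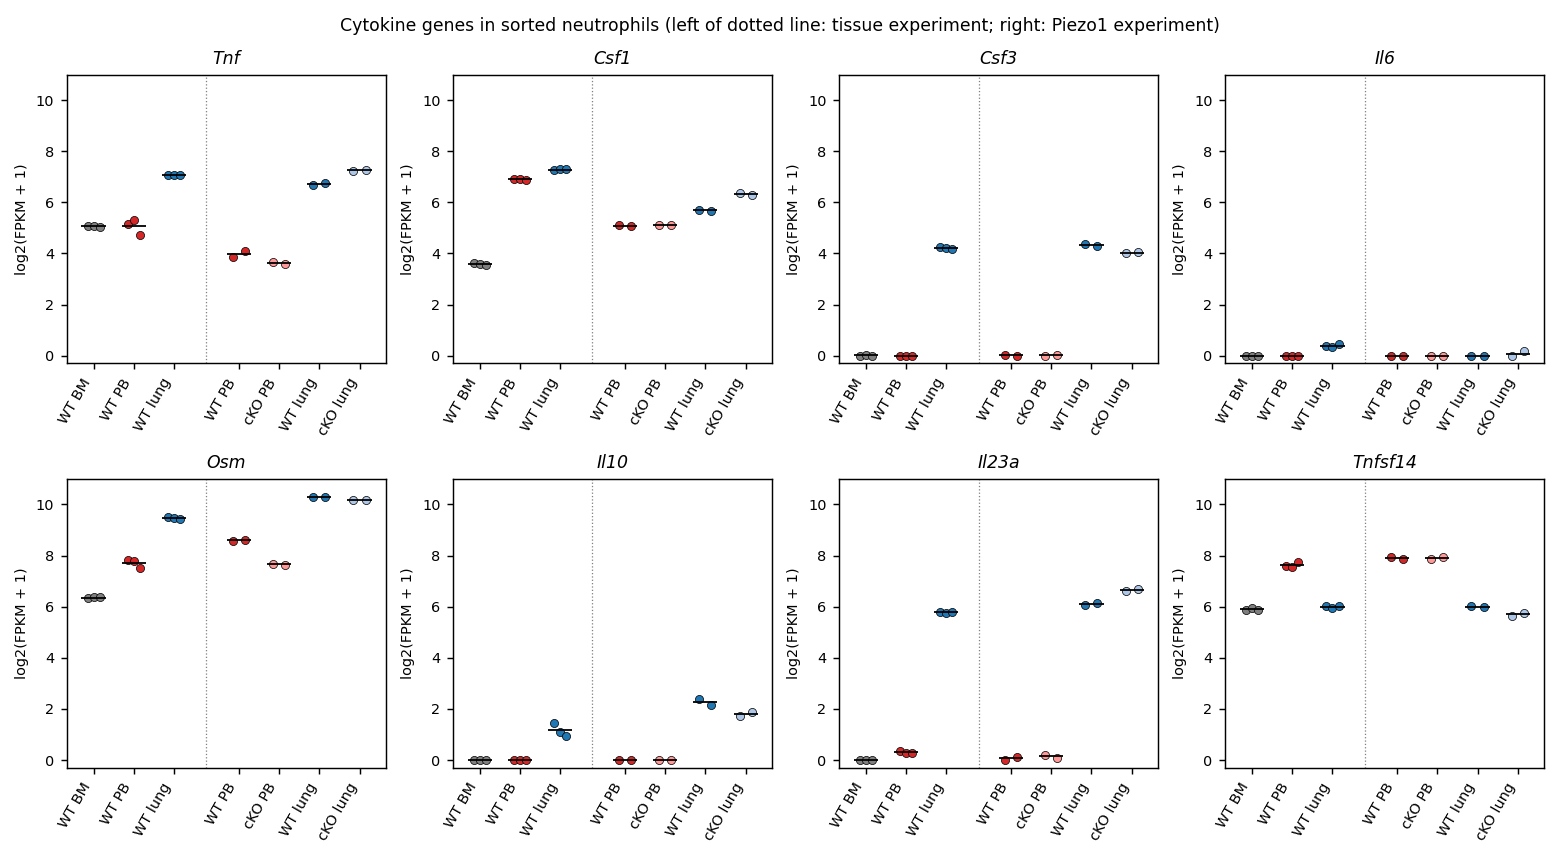
Level on the log2(FPKM + 1) scale of each of the 8 cytokine transcripts in every sorted library, one point per library with the group mean as a line, by site and genotype (tissue experiment left of the dotted line, *Piezo1* experiment right of it). *Osm* is the highest in lung, *Tnfsf14* is higher in PB than in lung, and *Csf3*, *Il6*, *Il10* and *Il23a* sit at or near 0 in PB and BM.

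In the tissue experiment 6 of the 8 members passed the filter on low values. In lung against PB, 4 were called higher and 1 lower (adjusted p below 0.05 and a log2 difference beyond 1), where 7.75% of all 7577 genes tested were called higher and 19.5% lower. In lung against BM, 5 were called higher and none lower, where 9.86% of genes were called higher and 36.0% lower. In both comparisons *Csf3* and *Il23a* passed the filter through their lung libraries alone, with PB and BM below 1 FPKM. On the log2(FPKM + 1) scale, such a gene near 0 at the other site lies near or beyond a difference of 1. Their calls therefore largely follow from the filter. In PB against BM, 4 were tested and *Csf1*, *Osm* and *Tnfsf14* were called higher, where 7.85% of genes were called higher and 14.1% lower. In the *Piezo1* experiment 7 were tested between WT lung and WT PB, and 5 were called higher and *Tnfsf14* lower, against 7.50% of genes higher and 26.5% lower. There *Csf3*, *Il23a* and *Il10* passed the filter through lung alone, with the same limit on their calls. FPKM was scaled within each library, and levels were not compared by a test between the 2 experiments. The excess of lower over higher genes depended on scale: when each library was rescaled by its median ratio to the others, 944 genes lay higher and 448 lower in lung against PB, in place of 587 and 1476. In lung against BM the rescaled split was 1607 higher and 1155 lower, in place of 812 and 2965, and between WT lung and WT PB of the *Piezo1* experiment it was 954 and 624, in place of 536 and 1893. The median gene moved by −0.54 in lung against PB, −0.70 in lung against BM, −0.12 in PB against BM, −0.62 in the WT and −0.54 in the *Piezo1*-cKO step of the *Piezo1* experiment. Relative to it, *Tnf* differed by 2.54, *Osm* by 2.29 and *Il23a* by 6.01 in lung against PB, and *Tnfsf14* by −1.10. Rescaled, *Csf1* was called in lung against PB at 1.02 and *Tnfsf14*, at −0.997, was not.

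**Figure D2:**
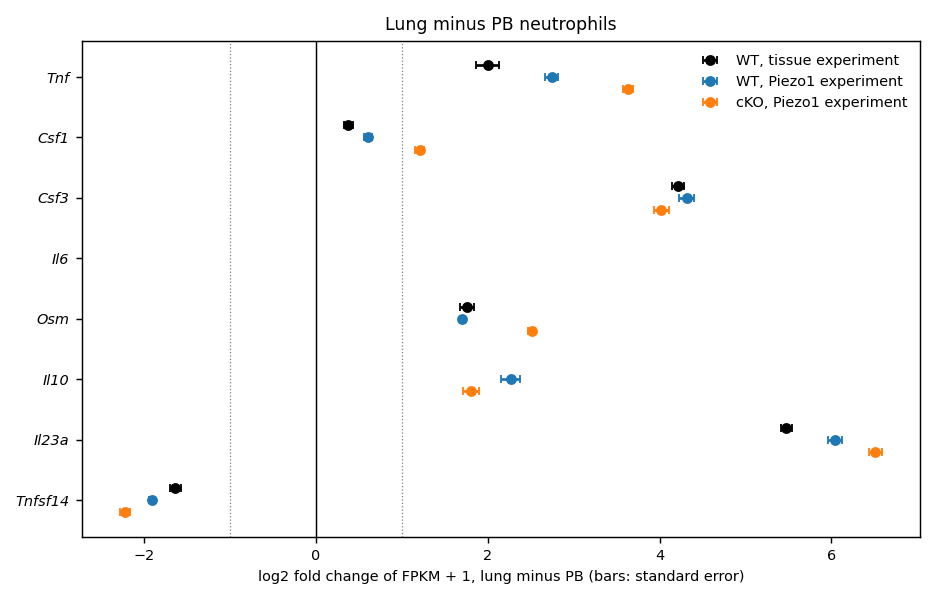
Difference between pulmonary and PB neutrophils on the log2(FPKM + 1) scale, with its SE, for each member in the tissue experiment and in both genotypes of the *Piezo1* experiment. *Il6*, and *Il10* in the tissue experiment, were not tested and have no point. Filled symbols passed adjusted p below 0.05 and dotted lines mark a difference of 1. *Tnfsf14* lies below 0 in all 3 comparisons and the other tested members above it.

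Among the receptors, 9 of 14 listed passed the filter, and in lung against PB 2 rose, 2 fell and 5 were not called, beside 7.75% of all genes called higher and 19.5% lower. *Tnfrsf1b*, which encodes TNFR2, rose from 132 to 481 FPKM (log2 difference 1.86), and *Il10ra*, the ligand-binding chain for IL-10, rose from 45.5 to 255 FPKM (2.46). *Ltbr*, a receptor of TNFSF14, fell from 76.0 to 11.5 FPKM (−2.62), and *Il6ra*, the IL-6 binding chain, fell from 97.4 to 40.1 FPKM (−1.26). Relative to the median gene *Ltbr* differed by −2.09 and *Il6ra* by −0.72, the latter short of the threshold of 1. The same 4 receptors were called in the same directions between WT lung and WT PB of the *Piezo1* experiment, with *Il6ra* at −0.89 relative to the median gene. Of those not called, *Tnfrsf1a*, which encodes TNFR1, was at 388 FPKM in lung and 451 in PB, *Tnfrsf14* at 12.8 and 16.0, *Csf1r*, the CSF-1 receptor, at 97.4 and 133, *Csf3r*, the G-CSF receptor, at 1503 and 2361, and *Il10rb*, the signalling partner of *Il10ra*, at 94.6 and 95.1 FPKM. *Il6st*, which encodes gp130, was at a mean of at most 0.208 FPKM in every sorted group, and *Osmr*, the oncostatin M receptor chain, at most 0.0115 FPKM. In WT whole lung *Il6st* was at 31.8 FPKM and *Osmr* at 5.16 FPKM. *Il23r* and *Il12rb1*, the chains of the IL-23 receptor, were at most 0.188 and 0.288 FPKM in sorted groups. *Lifr*, which oncostatin M also uses in mice, was at most 0.636 FPKM. In PB against BM 5 receptors were called higher (*Tnfrsf1b* by 2.04, *Il10ra* by 1.80, *Csf3r* by 1.70, *Csf1r* by 1.62 and *Tnfrsf1a* by 1.06) and none lower. Of all genes tested there, 7.85% were called higher and 14.1% lower.

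**Figure D3:**
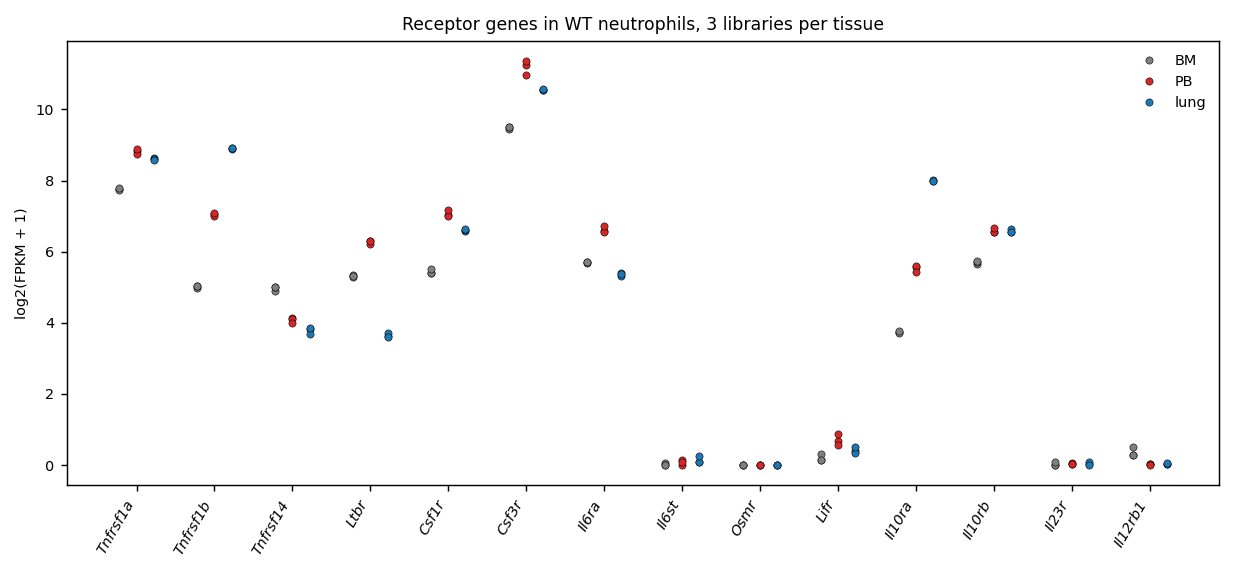
Level on the log2(FPKM + 1) scale of the 14 receptor genes in BM, PB and lung neutrophils of the tissue experiment, one point per library. *Tnfrsf1b* and *Il10ra* are higher and *Ltbr* and *Il6ra* lower in lung than in PB, and *Il6st*, *Osmr*, *Il23r* and *Il12rb1* are near 0.

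Target genes that TNF, IL-6 or IL-10 are known to induce, many of them feedback inhibitors, formed a list of 12. In lung against PB 10 were called higher, none lower and 2 not, where 7.75% of all genes tested were called higher and 19.5% lower. The median difference was 2.19 against −0.537 over all genes. The inhibitors of NF-kB signalling in it were *Nfkbie* (5.19), *Tnfaip3*, which encodes A20 (3.33), and *Nfkbia* (1.22). *Traf1* (4.76) and *Birc3* (2.35) encode adaptors of the TNF receptor complex, *Il1rn* (2.23) the IL-1 receptor antagonist and *Sod2* (4.17) a mitochondrial superoxide dismutase. *Pim1* (2.14), *Tnfaip2* (1.36) and *Bcl3* (1.12) were the other members called. *Socs3*, which restrains IL-6 signalling, was at 275 FPKM in lung and 447 in PB, and *Stat3*, the factor downstream of IL-6 and IL-10, at 160 and 137 FPKM, and neither reached the fold threshold. Of 35 other ligands of these families, 10 were tested in lung against PB. *Il12a* (3.19), *Lif* (1.63) and *Clcf1* (1.13), the last pair of the IL-6 family, were called higher. *Ltb*, which encodes lymphotoxin beta, was called lower (−1.47, or −0.93 relative to the median gene), and 6 were not called, beside the same shares of all genes. *Il12a* also passed the filter through lung alone, with the same limit on its call. *Lif* was too low to be tested in PB against BM. *Csf2*, which encodes GM-CSF, was at a mean of 0.0139 FPKM in lung and 0 in PB. Of 14 genes for ligand shedding and mRNA decay 12 were tested, and *Zc3h12a*, a nuclease that cleaves cytokine mRNAs, was called higher (2.48) while *Zfp36l2* (−2.05) and *Rc3h2* (−1.17), both RNA-binding proteins that promote decay, were called lower. These 1 higher and 2 lower of 12 stand beside 7.75% and 19.5% of all genes, and relative to the median gene *Zc3h12a* differed by 3.02, *Zfp36l2* by −1.52 and *Rc3h2* by −0.63. *Zfp36* was at 2028 ± 5.71 FPKM in lung and 3229 ± 406 in PB (SD, n = 3), and was not called.

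The *Piezo1* experiment then asked whether these transcripts depended on *Piezo1* in hematopoietic cells. In lung, 7 members were tested by limma and none was called at a log2 difference beyond 1. Of 6434 genes, 0.202% were called higher in WT and 0.793% lower (13 and 51 genes, or 18 and 34 when rescaled). No member was called on recovered reads either, where edgeR (TMM) called 505 of 8816 genes higher in WT and 712 lower. DESeq2 called 338 of 21878 genes higher and 474 lower. By limma all 7 had adjusted p below 0.05, where 15.8% of genes passed that threshold as higher in WT and 35.0% as lower. The differences were small and went both ways. *Csf1* was 51.7 and 50.2 FPKM in WT and 81.1 and 77.6 FPKM in *Piezo1*-cKO lung (WT minus cKO, −0.63 ± 0.0399, limma, adjusted p = 9.84e-05). *Tnf* was 102 and 107 FPKM in WT and 150 and 154 FPKM in *Piezo1*-cKO lung (−0.54 ± 0.0353, limma, adjusted p = 0.000103). *Il23a* was 66.7 and 69.1 FPKM in WT and 97.6 and 101 FPKM in *Piezo1*-cKO lung (−0.54 ± 0.0373, limma, adjusted p = 0.000108). These 3 transcripts were between 1.46 and 1.56 times as high in *Piezo1*-cKO lung. None of the 7 tested members overlapped between genotypes in lung, and the share of all genes that separate in this way was not counted. In the other direction, *Il10* was 4.27 and 3.41 FPKM in WT and 2.34 and 2.68 FPKM in *Piezo1*-cKO lung (0.46 ± 0.116, limma, adjusted p = 0.0148). *Tnfsf14* was 63.9 and 61.8 FPKM in WT and 49.1 and 52.4 FPKM in *Piezo1*-cKO lung (0.30 ± 0.0450, limma, adjusted p = 0.00169). *Csf3* was 19.9 and 18.5 FPKM in WT and 15.3 and 15.5 FPKM in *Piezo1*-cKO lung (0.30 ± 0.0585, limma, adjusted p = 0.00519). *Osm*, at 1254 and 1263 FPKM in WT and 1159 and 1150 FPKM in *Piezo1*-cKO lung, differed by 0.13. With 2 libraries a group, the spread behind these p-values comes from few samples and was shared across genes by the model.

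In PB, *Osm* was the member that differed most. It was 382 and 389 FPKM in WT and 205 and 199 FPKM in *Piezo1*-cKO PB, 1.91 times as high in WT (0.93 ± 0.0405, limma, adjusted p = 5.06e-05), just short of the fold threshold. *Tnf* was 13.5 and 16.1 FPKM in WT and 11.8 and 10.9 FPKM in *Piezo1*-cKO PB (0.35 ± 0.0955, limma, adjusted p = 0.0202). *Csf1*, at 33.9 and 32.3 against 33.8 and 33.6 FPKM, and *Tnfsf14*, at 242 and 233 against 233 and 247 FPKM, overlapped between genotypes. Of the 4 members tested by limma none was called, where 1.97% of 7256 genes were called higher in WT and 1.68% lower. By limma 2 had adjusted p below 0.05, where 23.2% of genes passed as higher in WT and 26.5% as lower. No member was called on recovered reads either, where edgeR (TMM) called 1138 of 9446 genes higher in WT and 768 lower. DESeq2 called 1082 of 21878 genes higher and 642 lower. *Csf3*, *Il6*, *Il10* and *Il23a* had at most 2 reads in any PB library, so a difference between genotypes was not detectable at this depth. The *Piezo1*-cKO PB libraries were those with the raised erythroid transcripts, whose part in the *Osm* difference was not tested.

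Among the receptors in PB, *Tnfrsf14*, the herpesvirus entry mediator, was called higher in WT, at 4.73 ± 0.955 against 1.45 ± 0.206 FPKM (SD, n = 2; limma, 1.21, adjusted p = 0.000791), and 8 were not called. In lung none of 9 receptors was called, and *Il6ra* was at 21.1 FPKM in WT and 38.6 FPKM in *Piezo1*-cKO. None of the listed target genes was called between genotypes at either site. *Tnfsf9*, the 4-1BB ligand, was called higher in WT PB, at 8.59 ± 1.58 against 3.11 ± 0.662 FPKM (SD, n = 2), with a difference of 1.22. Of all genes tested, 1.97% were called higher in WT and 1.68% lower in PB, and 0.202% and 0.793% in lung.

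**Figure D4:**
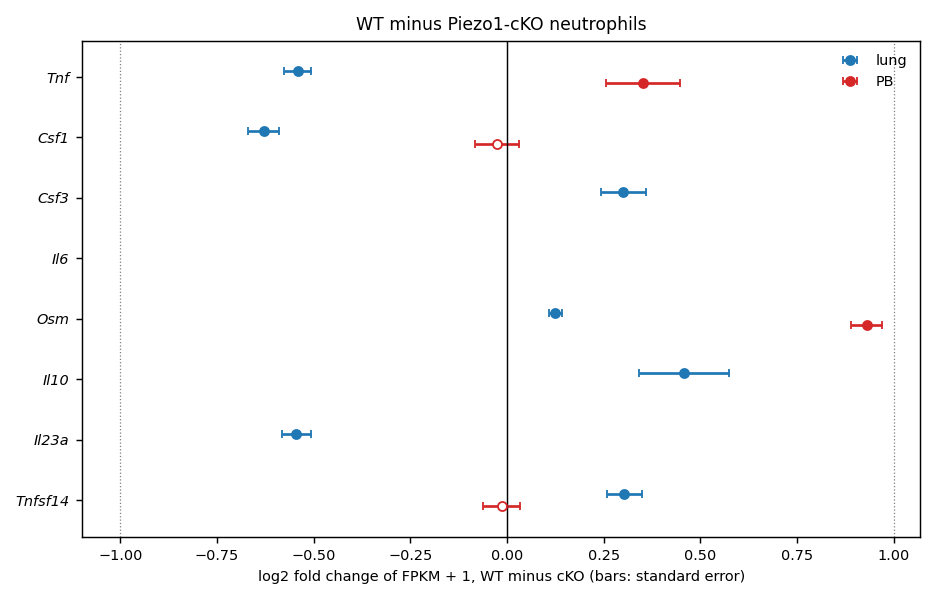
Difference between WT and *Piezo1*-cKO neutrophils on the log2(FPKM + 1) scale, with its SE, for each tested member in lung and PB. Filled symbols passed adjusted p below 0.05. No member reaches the dotted lines at 1, and *Osm* in PB comes nearest at 0.93.

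The step from PB to lung was also compared within *Piezo1*-cKO mice, where all 7 tested members were called, *Tnfsf14* lower and the others higher, against 7.93% of genes higher and 23.0% lower (with rescaled libraries, 999 genes higher and 546 lower, in place of 568 and 1644). *Csf3*, *Il23a* and *Il10* again passed the filter through lung alone, so their calls largely follow from it. *Tnf* rose 13.4 times in *Piezo1*-cKO and 7.06 times in WT mice, and *Osm* rose 5.72 times in *Piezo1*-cKO and 3.27 times in WT mice. A test of the difference between these steps (interaction, WT step minus *Piezo1*-cKO step) passed for *Tnf* at −0.89 ± 0.108 (limma, adjusted p = 0.000372), for *Osm* at −0.81 ± 0.0379 (limma, adjusted p = 7.13e-06) and for *Csf1* at −0.60 (limma, adjusted p = 0.000211). In all it passed for 6 of 7 members, against 18.5% of genes in the positive and 29.7% in the negative direction (1402 and 2245 genes, or 1840 and 1736 when rescaled). *Osm* differed between genotypes by 0.93 in PB and 0.13 in lung, *Csf1* by −0.02 in PB and −0.63 in lung, and *Tnf* by 0.35 in PB and −0.54 in lung. *Il10* and *Il23a* had 0 to 2 reads in each PB library, so that their interaction rests on PB levels below the floor of 3 reads. On recovered reads the *Il23a* interaction turned to 0.29 with edgeR (TMM) and 0.41 with DESeq2, and that of *Il10* was not called.

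Depleting neutrophils then tested how much of each transcript in whole lung went with them. *Tnfsf14* was 1.85, 1.6 and 2.05 FPKM in WT lung and 1.06, 1.01 and 0.750 FPKM after depletion. *Tnf* was 0.961, 0.765 and 0.943 FPKM in WT lung and 0.558, 0.503 and 0.237 FPKM after depletion. *Csf1* was 8.37, 7.66 and 8.40 FPKM in WT lung and 6.70, 6.33 and 5.6 FPKM after depletion. In these 3 transcripts every WT library was above every depleted library, by 1.95, 2.05 and 1.31 times in the mean. The share of all genes that separate in this way was not counted, so it is not known whether this is unusual. The exact permutation test, two-sided, gave p = 0.1 for each, the smallest p that 3 against 3 libraries allow, and p = 0.167 adjusted over the 5 members tested. *Osm* was 1.03, 1.02 and 0.353 FPKM in WT lung and 0.767, 0.525 and 0.556 FPKM after depletion, and overlapped (exact permutation p = 0.4, adjusted p = 0.4). *Il23a* overlapped as well, at no more than 0.156 FPKM in any library (exact permutation p = 0.3, adjusted p = 0.375). *Csf3* was listed at 0 in all 6 libraries, and *Il6* and *Il10* were listed at 0 after depletion and at no more than 0.138 FPKM in WT lung.

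Across all genes, limma tested 2 members, and neither *Csf1* (depleted minus WT, −0.34 ± 0.0884, adjusted p = 0.236) nor *Tnfsf14* (−0.55 ± 0.120, adjusted p = 0.185) was called, where 0% of 13990 genes were called higher and 0.00715% lower. Both had unadjusted p below 0.05, at 0.00575 and 0.00245, where 7.69% of genes had such a p as lower after depletion and 3.53% as higher. Neutrophil markers summed to between 205 and 266 FPKM in WT lung and between 40.1 and 119 FPKM after depletion, and B cell markers to between 83.1 and 89.2 and between 32.4 and 69.9 FPKM. Fibroblast markers (275 to 310 against 195 to 256 FPKM) and mast cell, basophil and eosinophil markers (3.85 to 4.83 against 2.0 to 3.64 FPKM) were also lower after depletion without overlap. T and NK cell markers overlapped (53.0 to 72.0 against 30.8 to 59.0 FPKM), as did macrophage and monocyte markers (153 to 160 against 149 to 169 FPKM). The part of these cell types in the member differences was not tested. In tissue as in sorted bulk samples, fewer cells of a type and less RNA per cell cannot be told apart. The summed FPKM of the 8 members was 11.8 in WT whole lung, most of it *Csf1*, and 1127 in sorted pulmonary neutrophils of the tissue experiment, of which *Osm* made up 62.4%. These levels come from separate tables with different gene lists and were not tested against each other.

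**Figure D5:**
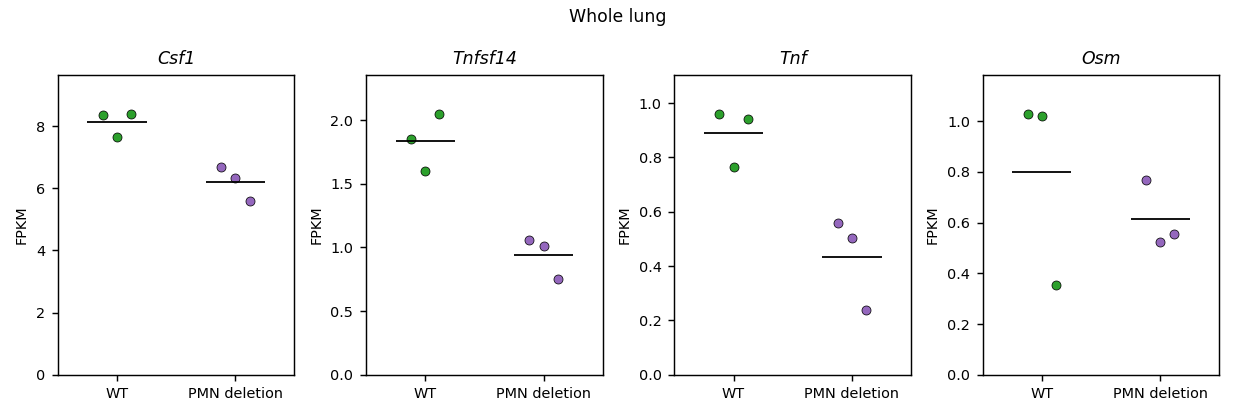
FPKM of *Csf1*, *Tnfsf14*, *Tnf* and *Osm* in whole lung, one point per library with the group mean as a line, for WT and neutrophil-depleted mice. The groups overlap for *Osm* and do not for the other members shown.

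Finally, the genes whose levels over the 17 sorted libraries lay nearest to each member, by the root mean square of log2 differences after centring within each experiment, were ranked among 8694 genes. Nearest to *Osm* were *Cebpb* (0.19), *Lmnb1* (0.21) and *Trib1* (0.22), and to *Tnf* were *Fam110a* (0.23), *Cdip1* (0.26) and *Rasgef1b* (0.27). *Il1a* was nearest to *Il23a* (0.22), followed at a distance by *Snai1* (0.43) and *Rabgef1* (0.48). *Csf3* lay nearest to *Isy1* and *Sod2* (both 0.15) and *Sh2b2* (0.19), *Csf1* to *Itga5* (0.22), *Cass4* (0.32) and *Dusp1* (0.35), and *Il10* to *Dmkn* (0.14), *Bambi* and *Spag9* (both 0.17). *Tnfsf14* lay nearest to *Chac1* (0.14), *Ifit3b* (0.18) and *Klf6* (0.19), and the member closest to it, *Csf1*, came at place 8175. *Il6* was too low to be ranked. These distances describe the size of differences in centred level across libraries of the same groups, and not a shared order.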

How the data were processed

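RNA-seq of sorted neutrophils and whole lung was used as deposited. The authors trimmed reads with fastp, aligned them to mm10 with HISAT2, counted them per gene with HTSeq and deposited FPKM (versions not given in the sources used here). The deposited signal of each sorted library was its FPKM, which the authors normalized before deposit: reads were divided by gene length and sequencing depth. Whole reads of the sorted libraries were recovered from these FPKM values, with 100% of values whole within 0.1. The library kit differs between the labels and the methods, and the strand setting is not given in the sources used here. The authors' fold changes and p-values were not used. Libraries were grouped by their labels.

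FPKM was tested as log2(FPKM + 1) by limma 3.58.1 (R 4.3.3, trend and robust) within each table, for genes at 1 FPKM or more in at least 3 libraries (2 where groups held 2), and p was adjusted by Benjamini and Hochberg's method. A call needed adjusted p below 0.05 and a log2 difference beyond 1 (0.5 in whole lung). Interactions needed the adjusted p alone. A fold on this scale understates the change of low genes. The FPKM table of whole lung gave no reads, so its depth is unknown. Floors are 3 reads and cover counting error only.

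Alternatives were a pseudocount of 0.1, no filter, rescaling by median ratio, the replicate number as a block, 1 fit over all libraries, adjusted p alone, edgeR 4.0.16 and DESeq2 1.42.0 on recovered reads, and each library left out. The fits were tested on simulated data. Named genes were the 8 members, and for each further list the genes past the threshold, and all receptors. *Csf2*, *Il12b*, *Zfp36*, *Socs3* and *Stat3* were named after their values were seen. The members and lists were chosen with earlier results of these data known, and calls are therefore descriptions of them.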

Additional observations from a re-analysis of the deposited data

Results flagged for a closer look

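The step from PB to lung differed between WT and *Piezo1*-cKO neutrophils for 6 members by the interaction test of limma (WT step minus *Piezo1*-cKO step, log2 scale, 2 libraries a group). *Tnf* differed by −0.89 (adjusted p = 0.000372), its lung libraries being higher and its PB libraries lower in *Piezo1*-cKO. *Osm* differed by −0.81 (adjusted p = 7.13e-06) and *Csf1* by −0.60 (adjusted p = 0.000211). *Tnfsf14*, which fell from PB to lung in both genotypes, differed by 0.32 (adjusted p = 0.00473). *Il23a* differed by −0.47 (adjusted p = 0.00784) and *Il10* by 0.46 (adjusted p = 0.0327), both with PB libraries at 0 to 2 reads. *Csf3* did not pass, at 0.30 (adjusted p = 0.0516). The erythroid transcripts of *Piezo1*-cKO PB, at between 910 and 972 FPKM summed, move with the same contrast, and their part was not tested.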

How the results depend on the processing

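Of 815 alternative values of 59 results, 767 kept their direction and their side of the threshold. Reversals concerned values near 0 and 1 interaction. *Tnf* in PB against BM ranged from −0.12 to 0.17 with a library left out. In WT against *Piezo1*-cKO PB, *Csf1* ranged from −0.058 to 0.0084 and *Tnfsf14* from −0.056 to 0.029 with a library left out, and *Tnfsf14* was 0.0095 when rescaled and 0.0053 with edgeR (TMM). The *Il23a* interaction became 0.29 and 0.32 with edgeR (TMM and RLE) and 0.41 with DESeq2, and *Il10* lost its interaction with a pseudocount of 0.1 (adjusted p = 0.14), without a filter (0.0599), with edgeR (1 and 1) and DESeq2 (0.775), and with any 1 library left out except WT lung replicate 2 and *Piezo1*-cKO lung replicate 2 (adjusted p between 0.0622 and 0.106 in the others). The cause was not tested, and both rest on PB libraries with 0 to 2 reads. In lung against PB, 8 members were called by DESeq2, which had no filter on FPKM, in place of 5. Over all 21878 genes DESeq2 called 2673 there, 1593 higher and 1080 lower. With adjusted p alone, 7 members passed between genotypes in lung and 2 in PB, in place of 0. Rescaled, *Csf1* was called in lung against PB at 1.02 and *Tnfsf14*, at −0.997, no longer was.

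Counts over all genes moved more. Between genotypes in lung, 64 calls became 332 with a pseudocount of 0.1, 3265 with adjusted p alone, 1217 and 1215 with edgeR and 812 with DESeq2. In PB, 265 became 672, 3607, 1906 and 1907, and 1724. With adjusted p alone, 2063 calls became 6479 in lung against PB, 3777 became 7628 in lung against BM, and 1811 became 6023 in PB against BM, where edgeR gave 3341 and 3336 and DESeq2 3595. For WT lung against WT PB 2429 became 6360, or 1578 when rescaled, and for *Piezo1*-cKO 2212 became 6054, or 3327 and 3309 with edgeR. The interaction count of 3647 became 5509 without a filter, and whole lung gave 1, 4 with a pseudocount of 0.1, 0 without a filter and 5 with the replicate block. Same-numbered libraries correlated between −0.089 and 0.0789 in their deviations. This cannot show whether they came from the same mouse, and with 2 libraries a group the correlations with the same and the other number are opposite by construction. Pairing is therefore unknown. With the replicate block the member counts were 5 in lung against PB, 5 in lung against BM, 3 in PB against BM, 6 and 7 in lung against PB of WT and *Piezo1*-cKO mice, 0 between genotypes at either site, 6 for the interaction and 0 in whole lung, as without it. With a library left out the interaction was called for 5 to 6 members, and the other member counts stayed at their values. Depth limited *Il6*, *Il10*, *Csf3* and *Il23a* in PB and BM, where differences under 3 reads could not be seen.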

Other observations

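WT pulmonary neutrophils were sequenced in both the tissue and the *Piezo1* experiment, and the values are given side by side without a test. FPKM was scaled within each library, and the source of differences between the experiments was not tested. *Csf1* was 154 ± 1.90 FPKM (SD, n = 3) and 51.0 ± 1.08 FPKM (SD, n = 2), *Osm* 704 ± 12.2 and 1259 ± 6.45 FPKM, and *Tnfsf14* 62.6 ± 1.27 and 62.9 ± 1.48 FPKM. The spread within each experiment was far below the gap between them for *Csf1* and *Osm*. *Zc3h12a*, the mRNA nuclease, was 297 ± 2.18 and 19.6 ± 1.76 FPKM, *Zfp36l2* 99.0 ± 1.40 and 6.76 ± 0.0885 FPKM, and *Pim1*, a kinase induced by cytokines, 1794 ± 28.3 and 131 ± 2.22 FPKM. Comparisons within an experiment do not cross this gap.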
